A study of Rickenella mellea with 14 samples.

Results

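The stipes of mature fruiting bodies were compared with primordia in Rickenella mellea, a small mushroom that lives among mosses. The comparison rests on 5 of the 14 libraries of the series, chosen by their labels: the 2 mature stipe libraries, replicates 1 and 4, and the 3 primordium libraries, replicates 1, 2 and 3. The stipes were cut from fruiting bodies 20 to 32 mm tall with a fully open cap. Primordium replicate 2 was a stage 1 primordium, a shaft-like body about 1 mm tall without a cap, and replicates 1 and 3 were stage 2 primordia, 2 to 3 mm tall with the first sign of one. The other 9 libraries come from young fruiting bodies, caps and agar-grown mycelium (3 each) and were used for the spread and for reference levels. All libraries carry the strain label SZMC22713. Stipes and primordia were collected in the field and share a flow cell, and the labels do not say how many individuals went into a library, so p-values measure only the spread between these samples, which may be technical.

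A primordium is the compact knot of hyphae in which the tissues of a mushroom are laid down. The stipe is the stalk that lifts the cap, and it reaches its height mainly through elongation of cells formed earlier. The primordia were sampled whole and the stipe is one part of the mature body, so a change with stage and a difference between parts cannot be told apart here. In such bulk samples, fewer cells of a type and less RNA per cell cannot be told apart either. The files pair gene models with no product name or genome position, so genes are given by the number of their model and no function is assigned to any of them.

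Total reads, in units of 1e6, were 35.3 and 21.5 in stipe replicates 1 and 4 and 18.4, 17.8 and 14.3 in primordium replicates 2, 1 and 3, over 17139 gene models. The stipe libraries ranked genes more alike (Spearman 0.972 across genes) than any pair of primordium libraries did (0.910 to 0.924), and stipe with primordium gave 0.866 to 0.891. The median absolute log2 difference between the stipe libraries was 0.32, and between primordium libraries 0.62 to 0.68. No pair agreed within counting noise (chi-square per degree of freedom at least 172).

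Of 15559 gene models tested, 2104 rose and 1518 fell in stipes relative to primordia. A gene was called at an adjusted p under 0.05 (edgeR quasi-likelihood test with Benjamini-Hochberg adjustment) and at least a 2-fold change. The calls make up 23.3% of the genes tested, 13.5% rising and 9.76% falling. The risen genes changed by a median of 2.44 on the log2 scale (quartiles 1.57 and 4.51) and the fallen genes by a median of -1.74 (quartiles -2.47 and -1.35). The 2 stipe values lay wholly outside the range of the 3 primordium values, on TMM-scaled CPM (reads per 1e6 after scaling), in 52.3% of genes tested, above it in 4976 (32%) and below it in 3159 (20.3%). With library size alone as the scale, they lay above it in 8029 genes and below it in 1384. Among the called genes, the groups did not overlap on the TMM scale for 2098 of the risen and 1491 of the fallen. The call sets the same groups apart, so it raises these counts.

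The number of calls moved with the design of the fit. When the 5 stipe and primordium libraries were fitted alone, 355 genes rose and 535 fell, so the larger direction turned. With the spread still shared by all groups, the counts without stipe replicate 1 were 1046 risen and 768 fallen, and those without stipe replicate 4 were 1208 and 713. Scaling by library size alone gave 4326 risen and 616 fallen genes. Removing each library's trend on gene length, with the fitted trend in place of TMM, gave 1663 and 2267. The balance of directions thus depends on the scaling, and the last fit changed more than the length trend.

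**Figure D1:**
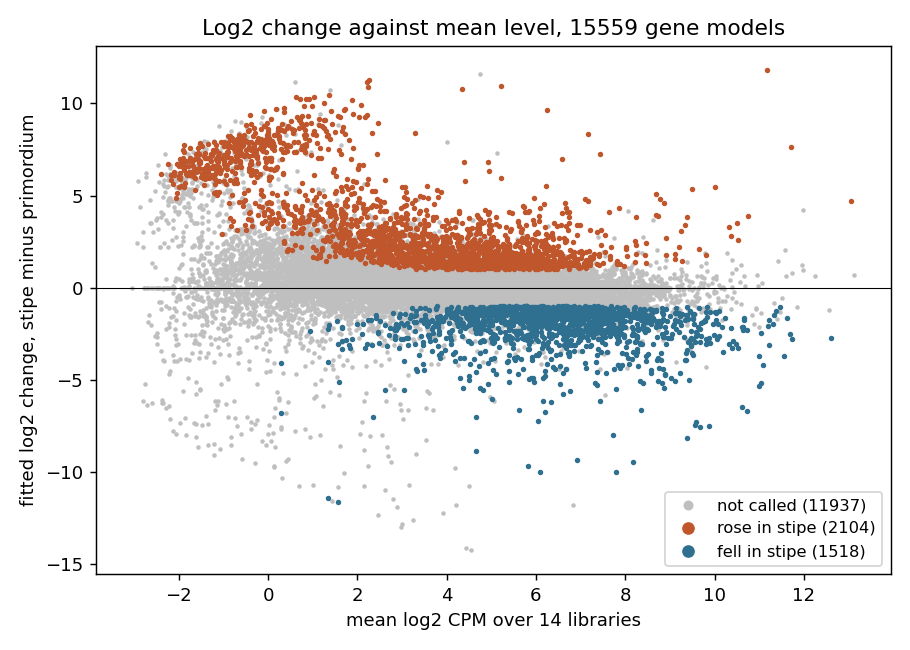
Fitted log2 change of stipe minus primordium (vertical axis) against mean log2 CPM over the 14 libraries (horizontal axis), 1 point per gene model. The 2104 risen models reach far up at low levels, and the 1518 fallen models lie mostly at middle and high levels.

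The 4 gene models named here were chosen among called genes with no overlap between stipe and primordium, so their separation is set by the choice. Gene model 838871, 879 bases long, had the smallest p-value of all. It stood at 639 and 687 CPM in stipe replicates 1 and 4, against 2.99, 2.35 and 0.801 CPM in primordium replicates 2, 1 and 3. Both stipe libraries were above all primordium libraries by more than 2 orders of magnitude. The fitted log2 change was 8.34 ± 0.57 (SE; edgeR adjusted p = 5.79e-05), and the gene averaged 663 ± 34.5 CPM in stipe (SD, n = 2) and 2.05 ± 1.13 CPM in primordium (SD, n = 3). Its level was 7.30 ± 2.63 CPM in mycelium, 188 ± 17.3 CPM in young fruiting body and 32.0 ± 12.9 CPM in cap (SD, n = 3 each). Among the 5 groups its order was therefore primordium lowest and stipe highest.

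Gene model 782935, a short model of 465 bases, rose by 7.24 ± 0.60 on the log2 scale (SE; edgeR adjusted p = 0.000174). It stood at 441 and 162 CPM in stipe replicates 1 and 4, against 1.28, 1.37 and 3.29 CPM in primordium replicates 2, 1 and 3. The groups did not overlap, but the stipe libraries differed from each other more than for the first gene. Its mean of 302 ± 197 CPM in stipe (SD, n = 2) lay within the spread of the young fruiting body, at 430 ± 199 CPM (SD, n = 3). It was at 159 ± 40.7 CPM in cap and 10.8 ± 1.43 CPM in mycelium.

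Gene model 808082, of 1266 bases, fell by 4.66 on the log2 scale (SE 0.38; edgeR adjusted p = 0.000174). It stood at 59.7 and 65.8 CPM in stipe replicates 1 and 4, against 1847, 1220 and 1705 CPM in primordium replicates 2, 1 and 3. The groups did not overlap. Its level was 237 ± 20.4 CPM in mycelium, 56.6 ± 12.1 CPM in young fruiting body and 295 ± 89.3 CPM in cap (SD, n = 3 each), so that stipe and young fruiting body were the low groups and did not differ beyond their spread.

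Gene model 116453, a long model of 3319 bases, fell by 3.06 on the log2 scale (SE 0.29; edgeR adjusted p = 0.0002). It stood at 10.7 and 9.57 CPM in stipe replicates 1 and 4, against 62.9, 82.6 and 107 CPM in primordium replicates 2, 1 and 3. The 2 stipe values were close together and below each primordium value. It was at 60.6 ± 7.30 CPM in mycelium, 15.2 ± 0.79 CPM in young fruiting body and 42.3 ± 9.24 CPM in cap (SD, n = 3 each). All reads of gene models 782935, 808082 and 116453 in the 5 libraries were unique to the model, and at least 99.95% of those of 838871.

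**Figure D2:**
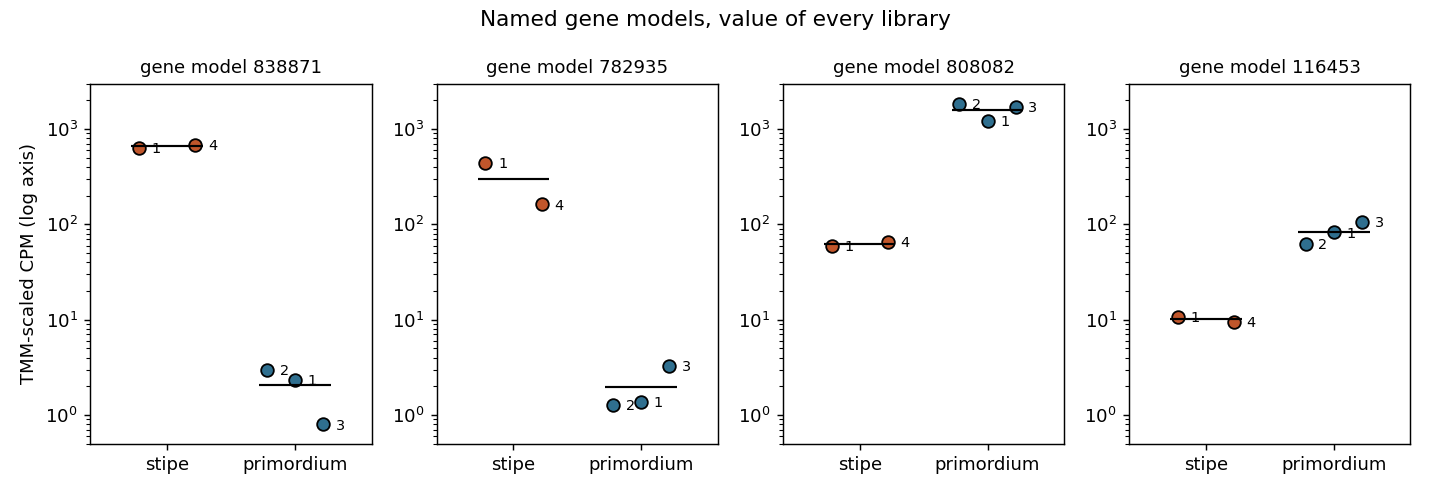
TMM-scaled CPM (log axis) of the 4 named gene models in each stipe and primordium library, 1 point per library with its replicate number and a line at the group mean. In each panel the stipe points lie wholly above or wholly below the primordium points, which the choice of these models required.

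The risen and the fallen genes lay in different parts of the range of mean level over the 14 libraries. These include the 5 libraries of the calls, so a high level in primordia itself raises the rank of a fallen gene. A gene at a low level also has little room to be called fallen. The counts are thus a description, and the same tertiles were used in all fits. When the genes tested were ranked by their mean CPM per kilobase over the 14 libraries and cut into tertiles, 853 rose and 40 fell in the lowest tertile. In the middle tertile 819 rose and 345 fell. In the highest tertile 432 rose and 1133 fell, a majority of fallen genes that turned to 1142 risen and 489 fallen when scaled by library size alone. The same lean held in each fit that left out 1 stipe or primordium library, with 420 to 1055 risen and 4 to 57 fallen genes in the lowest tertile and 250 to 495 risen and 599 to 1248 fallen genes in the highest. Across genes, the median log2 change was 0.87 in the lowest tertile, 0.24 in the middle and -0.35 in the highest, against 0.17 over all genes tested.

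**Figure D3:**
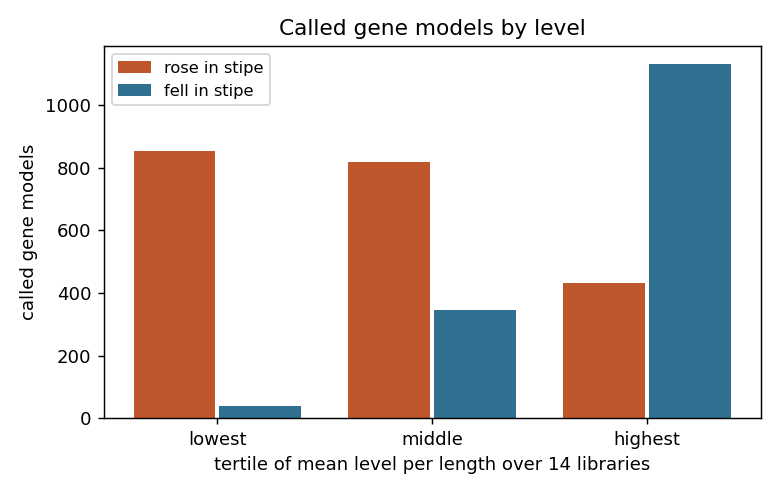
Number of called gene models (vertical axis) in tertiles of mean level per length over the 14 libraries (horizontal axis), with bars for genes that rose and genes that fell in stipe. Risen genes outnumber fallen ones in the lowest tertile (853 and 40), and the reverse holds in the highest (432 and 1133), where scaling by library size alone turns it to 1142 and 489.

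Many of the steepest rises were of genes with no read in primordia. Of the 2104 risen genes, 424 (20.2%) had no read in any primordium library, against 4.93% of all genes tested. A gene with no read in primordia cannot fall in stipe and passed the low-count filter only through other groups. The call and the filter thus raise this share. Reads in each primordium library were present for 1383 risen genes. All 424 were among the 611 genes with a fitted rise of at least 16-fold, and 388 of them were among the 401 with a rise of at least 64-fold. A fitted change against a group at 0 depends on the small count added by the fit, so these folds are not bounds. For the risen genes with reads in some primordium library the median log2 change was 2.03, and with the genes at 0 set to a lower bound from 3 reads over the primordium group on the TMM scale, it was 2.21 for the risen genes together. The levels in stipe of these 424 genes were low, from 0.113 to 10.4 CPM with a median of 0.695 CPM. In the other direction, 104 genes fell at least 16-fold, and 2 of the fallen genes (0.13%) had no read in either stipe library, against 1.06% of all genes tested.

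At a stricter level, 124 genes reached at least 1 CPM by library total in both stipe libraries and had no read in any primordium library, and 107 of them were called. They had 60 to 685 reads in the 2 stipe libraries together, with a median of 107.5. On the TMM scale, a count of 0 allows up to 0.256 to 0.294 CPM in a primordium library and 0.0905 CPM over the group. By this floor over the group their stipe levels were at least 10.9-fold higher, and at least 19.6-fold higher at the median. The choice of genes by 1 CPM and no read already sets this bound to at least 10.3. These genes were not particular to stipe: 62 of them also reached 1 CPM in each cap library, 59 in each mycelium library and 30 in each young fruiting body library. Only 1 of the 124 reached 10 CPM in both stipe libraries. The reverse, at least 1 CPM in each primordium library and no read in stipe, held for 3 genes, none of which was called. Their means in primordia were 11.6 to 51.8 CPM by library total, but none reached 10 CPM in each primordium library. Counting floors cover counting error only, since PCR copies of 1 molecule were not marked.

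Fewer gene models had a read in the primordium libraries at equal totals. With the 5 libraries thinned at random to the smallest total, 14.3 in units of 1e6 reads, 15522 and 15394 gene models had a read in stipe replicates 1 and 4, against 13647, 13456 and 13889 in primordium replicates 2, 1 and 3. The means were 15458 ± 90.5 in stipe (SD, n = 2) and 13664 ± 217 in primordium (SD, n = 3), a difference with an exact two-sided permutation p of 0.1, the smallest that 10 splits allow. Thinned to the smallest of the 14 libraries, a check added after seeing the data, the other groups also stood above primordium, at 14899 to 15100 in mycelium, 14904 to 15180 in young fruiting body and 15160 to 15340 in cap. Some genes had no read though the other groups' levels gave at least 20 reads at that depth. They numbered 93 and 150 of 13483 in the stipe libraries, against 858, 926 and 672 of 13681 in primordium replicates 2, 1 and 3. In the other groups they numbered 324 to 346 of 13290 in mycelium, 188 to 306 of 13598 in young fruiting body and 151 to 247 of 13381 in cap. The lower detection in primordium moves with the risen genes, and its part in the result was not tested. Thinning evens out the totals only. The fallen genes took 43.6% to 52.0% of the reads in primordia, against 17.4% and 17.9% in stipes, which leaves fewer reads for the other genes. The part of this in the lower detection was not tested.

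The called genes also held different shares of the reads. The 1518 fallen genes took 17.9% and 17.4% of the reads of stipe replicates 1 and 4, against 51.3%, 52.0% and 43.6% in primordium replicates 2, 1 and 3. The 2104 risen genes took 14.5% and 12.4% in stipe, against 1.53%, 1.53% and 2.04% in primordium. These shares describe the genes chosen by the test and are no test of their own. In mycelium, young fruiting body and cap the fallen genes took 14.9% to 21.7% of the reads. The risen genes took 6.87% to 7.60% in mycelium, 10.3% to 13.8% in young fruiting body and 12.2% to 12.7% in cap.

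**Figure D4:**
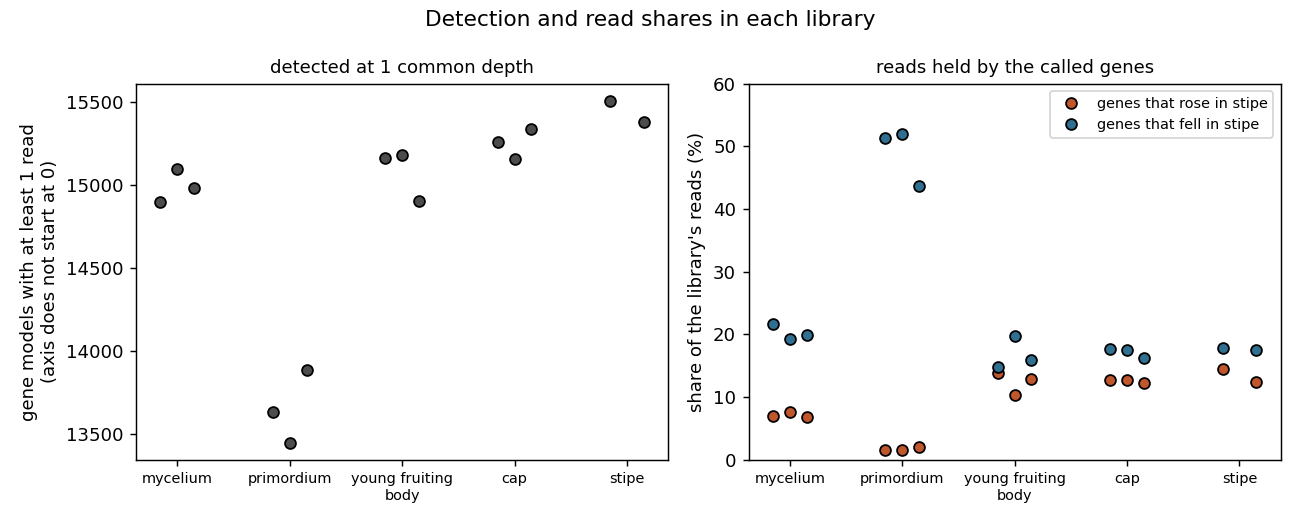
Left, gene models with at least 1 read in each library after thinning all 14 to 1 depth (axis not from 0), and right, percent of a library's reads held by genes that rose and genes that fell in stipe, 1 point per library. The primordium libraries have the fewest detected models (13446 to 13882), the largest share for fallen genes and the smallest for risen genes.

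The most abundant transcripts changed in part. Of the 100 most abundant gene models of each group, by mean share of reads, 43 were the same. Of the 100 of primordium, 71 fell in stipe and 0 rose, with a median log2 change of -2.22. Of the 100 of stipe, 19 rose and 18 fell, with a median of 0.27. Of all genes tested, 13.5% rose and 9.76% fell. Genes chosen for a high level in a group lean toward being higher in that group, so these counts are a description and no test. The 100 most abundant genes of a library took 26.9% and 29.8% of the reads in stipe replicates 1 and 4, against 34.4%, 34.4% and 26.9% in primordium replicates 2, 1 and 3. These shares overlapped, and the difference of -3.56 percentage points gave an exact two-sided permutation p of 0.3.

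The levels in the other groups show on which side the called genes stood apart. For 1315 of the 2104 risen genes (62.5%) the 3 primordium libraries were below each of the other 11 libraries, which held for 12.8% of all genes tested. For 963 of the 1518 fallen genes (63.4%) the primordium libraries were above each of the other 11, against 9.48% of all genes tested. Far fewer were set apart by the stipe. Both stipe libraries were above each of the other 12 for 327 risen genes (15.5%, against 4.41% of all tested) and below each of them for 173 fallen genes (11.4%, against 2.38%). Those 327 genes rose by a median of 2.25 and those 173 fell by a median of 1.69 on the log2 scale. The call already sets stipe and primordium apart, so these counts describe where the other groups lie.

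By group means, the primordium was the lowest of the 5 groups for 1806 risen genes (85.8%, against 35.0% of all genes tested) and the highest for 1321 fallen genes (87.0%, against 25.2%). The stipe was the highest for 690 risen genes (32.8%, against 16.3%) and the lowest for 445 fallen genes (29.3%, against 14.0%). A risen gene cannot have its lowest mean in stipe or its highest in primordium, nor a fallen gene the reverse, so the call itself raises these shares.

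Each of the other groups lay between the stipe and primordium means more often among called genes than among all genes tested, and the call, which sets these means apart, raises such shares. For the young fruiting body this held for 1271 risen genes (60.4%) and 862 fallen genes (56.8%), against 37.4% of all genes tested. For the cap it held for 52.7% of risen and 45.7% of fallen genes, against 32.6%, and for mycelium for 44.5% and 39.3%, against 25.7%. The young fruiting body lay above both means for 786 risen genes (37.4%), close to the 34.6% of all genes tested, and below both for 605 fallen genes (39.9%, against 28.1%). The cap lay above both for 884 risen genes (42.0%, against 37.1%) and below both for 778 fallen genes (51.3%, against 30.3%).

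Relative to a gene's mean in primordia, the risen genes stood at a median of 2.39 and 2.41 on the log2 scale in stipe replicates 1 and 4. In the other groups the medians were 2.05 to 2.22 in mycelium, 2.02 to 2.31 in young fruiting body and 2.17 to 2.38 in cap. For the fallen genes the medians were -1.67 and -1.70 in the stipe libraries, -1.94 to -1.73 in mycelium, -1.80 to -1.41 in young fruiting body and -1.87 to -1.81 in cap. Over all genes tested, the medians in the 11 libraries outside primordia were 0.20 to 0.42. All these values share the primordium mean that was also used to call the genes, so they are not independent of the call or of each other.

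**Figure D5:**
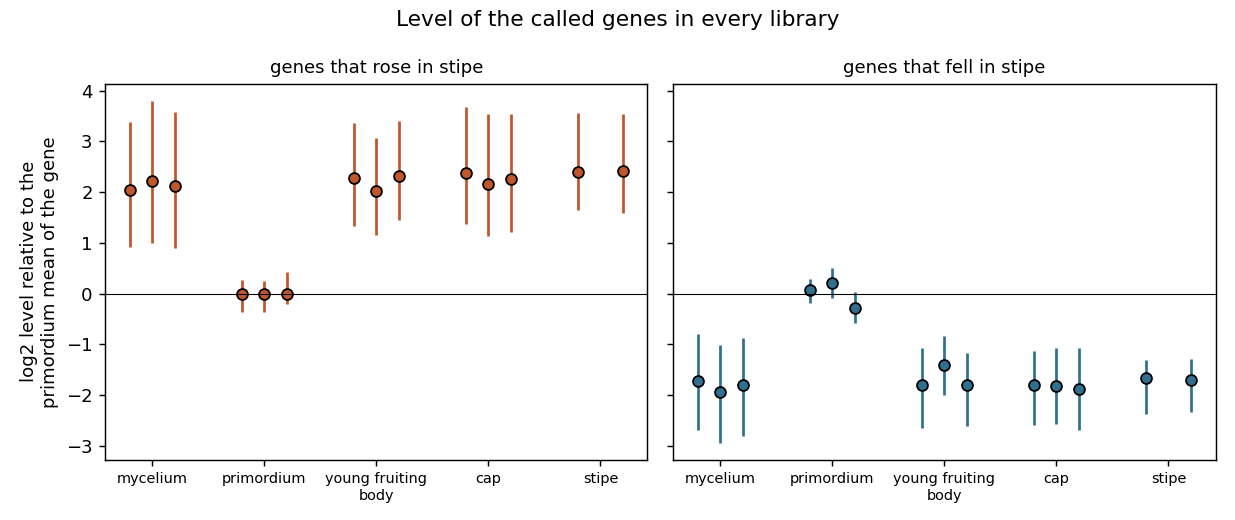
Median log2 level of the risen genes (left) and the fallen genes (right) in each of the 14 libraries, relative to each gene's mean in primordia. Points are medians over genes and lines run between the quartiles; outside primordium the library medians are 2.02 to 2.41 for risen and -1.94 to -1.41 for fallen genes, against 0.20 to 0.42 over all genes tested.

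Of the primordium libraries, a stage 2 one, replicate 3, stood nearest to the stipe. Among the fallen genes it had the lowest of the 3 primordium values in 890 (58.6%), the stage 1 library in 351 (23.1%) and stage 2 replicate 1 in 277 (18.2%). Among the 1528 risen genes whose primordium values all differed, replicate 3 had the highest value in 587 (38.4%), replicate 1 in 474 (31.0%) and the stage 1 library in 467 (30.6%). The median log2 change of the fallen genes was -1.43 against replicate 3, -1.74 against the stage 1 library and -1.88 against replicate 1. Over the 13714 genes tested with 3 different values, replicate 3 was lowest in 35.5% and highest in 33.2%. With 1 stage 1 library there is no replicate check of stage. Without it 2019 genes rose and 1641 fell, of which 3009 were also called with it.

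The stipe libraries differed at least 2-fold from each other in 182 risen genes (8.65%) and 61 fallen genes (4.02%), against 11.4% of all genes tested. Pairs of primordium libraries differed that much in 29.6% to 30.9% of risen and 18.8% to 31.0% of fallen genes, against 35.2% to 37.4% of all genes tested. The call favours genes with a small spread within groups, so the lower shares among called genes are no separate result.

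Gene length also differed between the classes. The median length was 1139.5 bases for risen genes, 1485 bases for fallen genes and 1173 bases for genes not called. Among the shortest tertile of genes, up to 913 bases, 759 rose and 311 fell, and among the longest tertile, from 1552 bases, 640 rose and 699 fell. The median log2 change was 0.018 in the longest tertile and 0.39 in the shortest, a difference of -0.37. Removing each library's trend on length left a difference of 0.26 in the other direction when fitted to all genes tested. It left -0.022 when fitted to genes with a mean of at least 1 CPM, an alternative chosen after seeing the data. Both fits used the trend in place of TMM, so the scaling changed along with the length trend.

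Comparisons between groups that hold none of the 5 libraries were set beside this one. They came from the same fit of all 14 libraries and share its filter, scaling and estimate of the spread. Their calls are therefore not independent of those in stipe. Of the 2445 genes that rose from mycelium to young fruiting body (15.7% of those tested), 409 (16.7%) rose and 294 fell in stipe relative to primordium. Of the 1674 that fell there (10.8%), 294 (17.6%) rose and 228 (13.6%) fell. Both directions thus held somewhat larger shares of calls in stipe than the 13.5% and 9.76% of all genes tested. Of the 209 genes that rose from young fruiting body to cap (1.34% of those tested), 61 (29.2%) rose and 28 (13.4%) fell in stipe. Of the 276 that fell from young fruiting body to cap (1.77%), 89 (32.2%) rose and 20 (7.25%) fell in stipe. Their median log2 changes between stipe and primordium were 0.59 and 0.62, against 0.17 over all genes tested.

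Reads shared between similar models touched few of the calls. In 91 called genes (2.51%) under 90% of the reads in the 5 libraries were unique to the model, as in 3.72% of all genes tested, and the levels of these genes are uncertain.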

How the data were processed

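Polyadenylated RNA was sequenced with a TruSeq v2 kit, which does not mark strand, per the labels' protocols. The deposited tables gave whole-number read counts, total and unique, for each gene model of the set Ricmel1, per the file headers. The deposited RPKM values equalled total reads per gene length and library total in 100% of rows. The deposited tables are named as CLC RNA-Seq tables, and the mapper's version, settings and genome build were not given in the sources used here. Per the submitters' processing notes, the tools were edgeR 3.4.2 and limma 3.18.13 in R 3.0.2.

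Total reads of the 14 libraries were fitted in 1 edgeR 4.0.16 quasi-likelihood model (R 4.3.3) with TMM scaling and filterByExpr, which left 9 residual degrees of freedom and let the stipe group borrow its spread from the others. TMM factors were 1.10 and 1.04 in stipes and 0.572 to 0.786 in primordia. CPM are TMM-scaled unless said to be by library total. Standard errors are the log2 change divided by the square root of F. Alternatives used limma 3.58.1 and DESeq2 1.42.0. The edgeR test and the removal of the length trend were tried on simulated counts with known changes, with outcomes not given here. The permutation tests were not tried in this way. The named genes are the 2 risen and 2 fallen called genes with the smallest adjusted p among those with at least 90% unique reads in each of the 5 libraries and no overlap between groups. The members and lists were chosen with earlier results of these data known.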

Additional observations from a re-analysis of the deposited data

Results flagged for a closer look

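Of the named genes, 3 also differed between the stipe and the cap, which are parts of the same mature stage. Gene model 838871 was 4.37 ± 0.47 higher in stipe than in cap on the log2 scale (SE; edgeR adjusted p = 0.000434). Gene model 808082 had a stipe minus cap difference of -2.24 ± 0.33 (edgeR adjusted p = 0.00217), and gene model 116453 one of -2.06 ± 0.27 (edgeR adjusted p = 0.0012). For gene model 782935 the difference was 0.93 ± 0.48 and did not pass (edgeR adjusted p = 0.239). Over all genes, 12.6% were called between stipe and cap, a comparison that shares the stipe libraries with the one above.

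The low-count filter asks for enough reads in more than a single library, and it left 1580 gene models out of the test. Of these, 21 stood at 10 CPM or more by library total in primordium replicate 2, the stage 1 library. They were under 1 CPM in both stipe libraries. In primordium replicate 3, 5 models stood at 10 CPM or more and under 1 CPM in both stipe libraries. The highest count among these models was 18091 reads in primordium replicate 2 and 511 reads in replicate 3. None of these models reached 1 CPM in another primordium library, and 18 of the 21 had no read in the other 13 libraries. Primordium replicate 1 and both stipe libraries had 0 such models.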

How the results depend on the processing

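The count of 3622 called genes stayed within 1.5 times in 14 of 19 alternatives. It was 5682 by limma-trend on log2(RPKM + 0.1), 890 with only the 5 libraries in the fit and 1856 at a 4-fold minimum, which is lower by construction. With each library left out it ran from 1814 (without stipe replicate 1) to 4158 (without primordium replicate 3), and was 1921 without stipe replicate 4. Where 1 stipe library was left, its spread was taken to be that of the other groups. DESeq2 called 4412 (2438 risen, 1974 fallen) and limma-voom 3497. By limma-trend on log2(RPKM + 1) the count was 5111 (4497 risen, 614 fallen). Both limma-trend fits used RPKM without TMM.

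The median log2 change of all genes tested, 0.17, was 0.85 with library size alone and 0.12 with DESeq2 size factors. It was -0.11 with the length trend removed and 0 with that trend fitted to genes above 1 CPM. Both length-trend fits used the trend in place of TMM, so the scaling changed as well. The length difference of -0.37 became 0.26 and -0.022 in those last fits, and ran from -0.49 to -0.31 with each library left out. The cause was not tested. The 4 named genes kept direction and call in 68 of 68 alternatives, among them each left-out library. Those genes were chosen for a small adjusted p and no overlap in these same data, so the choice itself favours this outcome. It says little about the other calls. The non-overlapping genes numbered 8106 to 9413. With library size alone their split was 8029 above and 1384 below, against 4976 and 3159. It was 4967 and 3139 with unique reads and 5177 and 3152 with no filter on low counts. The difference in detected genes, 1794, was 1626 at 5 reads and 1790.2 with 14 libraries thinned, and that in the share of the 100 most abundant genes was -3.59 percentage points with unique reads. No paired analysis was possible because stipe and primordium share only replicate number 1. At this depth, a count of 0 in a primordium library allows a level of up to 0.256 to 0.294 CPM.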
